A study of Rattus norvegicus with 6 samples.

Results

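Transcripts of 10 enzymes that hydroxylate collagen or crosslink it were compared between the lungs of control rats and of rats given monocrotaline (MCT). The members were taken by symbol from the deposited table of 23802 genes, and they were the 5 lysyl oxidases (Lox, Loxl1, Loxl2, Loxl3 and Loxl4), the 3 lysyl hydroxylases (Plod1, Plod2 and Plod3) and 2 alpha chains of prolyl 4-hydroxylase (P4ha1 and P4ha2). Each symbol had 1 row, and all 10 passed the filter on low counts. PolyA RNA of lung tissue from wild-type male Sprague-Dawley rats weighing 200 to 250 g was sequenced, with 3 samples from rats given saline and 3 from rats given MCT at 60 mg/kg, an alkaloid toxic to the pulmonary vessels, and lungs were collected 4 weeks later. The labels name the MCT injection as intraperitoneal in one place and subcutaneous in another, and the saline as subcutaneous. They do not say whether each sample is 1 animal. The p-values therefore set the group difference against the spread of these samples only, and that spread may be technical.

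Collagen chains are modified before and after they leave the cell. In the endoplasmic reticulum, prolyl 4-hydroxylase makes the hydroxyproline that holds the triple helix together at body temperature, and lysyl hydroxylases convert chosen lysines to hydroxylysine. After secretion, the copper enzymes of the lysyl oxidase family turn lysine and hydroxylysine side chains into aldehydes, which then join neighbouring collagen or elastin molecules. In the lung this chemistry sets the stiffness of vessel walls, airways and alveolar septa.

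Of the 10 transcripts, 4 were higher in MCT lungs, 0 were lower and 6 did not pass the test (edgeR quasi-likelihood test with p-values adjusted by Benjamini-Hochberg over 15250 tested genes, threshold 0.05). Plod2, the lysyl hydroxylase of collagen telopeptides, rose 3.02-fold, Loxl1 and Loxl2 each rose 1.85-fold and Plod3 rose 1.39-fold. Neither prolyl 4-hydroxylase alpha chain nor Lox itself passed. Over all tested genes, 8.01% were called higher and 5.11% lower. The 10 transcripts had a median log2 fold change of 0.36, beside -0.01 over all tested genes. The groups did not overlap, with MCT above control, for the same 4 transcripts that were called, where 18.4% of all tested genes had no overlap in that direction and 17% in the other.

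**Figure D1:**
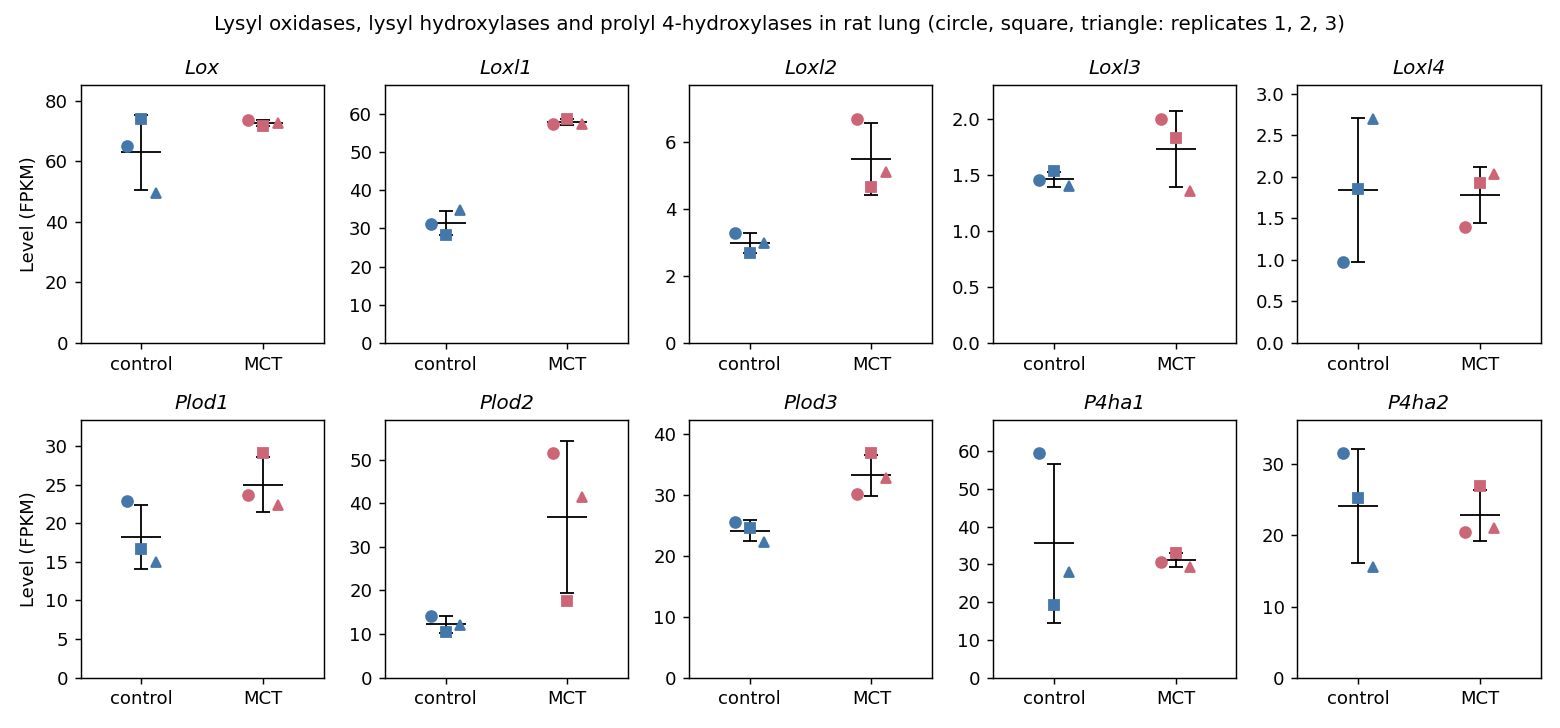
Level of each enzyme transcript in FPKM (vertical axis from 0) in the 3 control and 3 MCT lungs; circles, squares and triangles are replicates 1, 2 and 3, and the bars are the mean and SD. All 3 MCT lungs lie above all 3 controls for Loxl1, Loxl2, Plod2 and Plod3, while control replicate 1 stands above every other lung for P4ha1 (59.5 FPKM) and P4ha2 (31.5 FPKM).

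The levels below are in FPKM, which is scaled to gene length and can therefore be set side by side between genes. In control lungs Lox had the highest mean level, 62.9 ± 12.3 FPKM (SD, n = 3), ahead of P4ha1 at 35.6 ± 21.1 FPKM and Loxl1 at 31.4 ± 3.24 FPKM, and the ranges of Lox and P4ha1 overlapped. Plod3 and P4ha2 both had a mean of 24.1 FPKM, Plod1 had 18.2 ± 4.13 FPKM and Plod2 12.2 ± 1.88 FPKM, and the control values of Plod1 and Plod2 did not overlap. Loxl2, at 2.98 ± 0.31 FPKM, Loxl4 and Loxl3 were the lowest, with overlapping ranges between Loxl2 and Loxl4 and between Loxl4 and Loxl3. In MCT lungs Lox stayed the most abundant, at 72.6 ± 1.0 FPKM, and was followed by Loxl1 at 57.9 ± 0.816 FPKM, with no overlap between them. Plod2 stood at 36.8 ± 17.4 FPKM in MCT lungs, the third mean from the top, but its range overlapped those of Plod3, P4ha1, Plod1 and P4ha2.

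The sequences just upstream of some of these genes are shown because several members (Plod2, P4ha1 and P4ha2) are known targets of the hypoxia-inducible factors, which bind a short core element. RefSeq start-site windows were matched by symbol for 8 of the 10 members, all except Lox and Loxl2, and the 250 bases before the start site were searched on both strands for ACGTG and GCGTG, the cores of the hypoxia response element, of which neither contains the other. The windows printed are those of the member with the largest rise (Plod2), the member whose rise varied least between samples (Loxl1) and both alpha chains, from 5′ to 3′ on the gene's strand, with every match on either strand in capitals. They lie in the GRCr8 assembly at chr8:101964068-101964317 on the plus strand (Plod2), chr8:67612225-67612474 on the minus strand (Loxl1), chr20:27844796-27845045 on the plus strand (P4ha1) and chr10:38743644-38743893 on the plus strand (P4ha2).
Plod2: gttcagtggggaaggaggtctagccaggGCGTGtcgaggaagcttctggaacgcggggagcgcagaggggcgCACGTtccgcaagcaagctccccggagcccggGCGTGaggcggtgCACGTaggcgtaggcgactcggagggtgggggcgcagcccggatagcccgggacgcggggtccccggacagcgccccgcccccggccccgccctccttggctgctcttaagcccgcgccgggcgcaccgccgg
P4ha1: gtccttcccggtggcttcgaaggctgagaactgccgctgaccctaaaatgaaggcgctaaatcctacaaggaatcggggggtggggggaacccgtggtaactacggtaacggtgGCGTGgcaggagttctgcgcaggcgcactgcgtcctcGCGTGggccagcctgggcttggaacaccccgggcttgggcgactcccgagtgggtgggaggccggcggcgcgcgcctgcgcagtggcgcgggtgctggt
P4ha2: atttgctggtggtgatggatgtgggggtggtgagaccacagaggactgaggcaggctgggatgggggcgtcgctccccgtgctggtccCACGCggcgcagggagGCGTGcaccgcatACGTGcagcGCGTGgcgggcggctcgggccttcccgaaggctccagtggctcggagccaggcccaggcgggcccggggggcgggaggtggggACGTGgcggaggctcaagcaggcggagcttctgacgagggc
Loxl1: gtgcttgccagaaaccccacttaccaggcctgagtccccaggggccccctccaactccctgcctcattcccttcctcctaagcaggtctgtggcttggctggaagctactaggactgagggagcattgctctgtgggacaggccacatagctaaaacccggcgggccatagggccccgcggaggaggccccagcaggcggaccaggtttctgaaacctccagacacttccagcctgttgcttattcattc

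Plod2 held 4 matches in its window, P4ha1 held 2 and P4ha2 held 5, while Loxl1 and Loxl4 held 0 and Loxl3, Plod1 and Plod3 held 1 each. The P4ha1 window ends at a start site 60.4 kb inside the gene as RefSeq spans it, so its count describes that start site, and which start site was used in these lungs was not tested. At least 1 core match was found in 36.7% of the 33469 windows of that length, at least 2 in 16% and at least 4 in 2.44%. The member windows were rich in G and C, at 74.8% for Plod2, 72.4% for P4ha2, 67.6% for P4ha1 and 60.4% for Loxl1, against a median of 51.2% over all windows. TGACTCA, the AP-1 element, was in 0 of the 8 member windows and in 4.05% of all windows. CAGACA, a Smad element, was found in the Loxl1 window, 31 bases before the start site, and in 17.2% of all windows. A match of letters is a description of the sequence and says nothing of whether a factor binds there.

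Prolyl 4-hydroxylase is a tetramer of alpha chains, which carry the catalytic site, and the beta chain protein disulfide isomerase. P4ha1, the main alpha chain of most tissues, stood at 59.5, 19.4 and 28.1 FPKM in control replicates 1 to 3 and at 30.7, 33.1 and 29.4 FPKM in MCT replicates 1 to 3. The MCT lungs were close together, while the highest control was 3.11 times the lowest on the CPM scale, and the groups overlapped. The log2 fold change was -0.20 (SE 0.35, 95% interval -1.0 to 0.61, adjusted p = 0.756, edgeR quasi-likelihood test), and without control replicate 1 it was 0.42 (adjusted p = 0.147). P4ha2, a second alpha chain, stood at 31.5, 25.3 and 15.6 FPKM in the controls and at 20.5, 26.9 and 21.1 FPKM in the MCT lungs, again with the highest value in control replicate 1. Its log2 fold change was -0.08 (95% interval -0.66 to 0.50, adjusted p = 0.87), and it was 0.19 without control replicate 1 (adjusted p = 0.658). The intervals leave room for changes in either direction, so neither transcript is shown to be unchanged.

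Other transcripts were compared in control replicate 1. Of the 21 tested genes in the hypoxia-responsive list, 4 were at their highest there, or 19%, beside 16.4% of all tested genes. Of the 19 tested genes in the list of other collagen-modifying enzymes and chaperones, 2 were, or 10.5%. Serpinh1, the collagen chaperone HSP47, had 666, 372 and 381 CPM in the controls, in replicate order, against 650, 689 and 684 CPM after MCT. Serpinh1 belongs to that list of 19, and its highest value was in MCT replicate 2. Its control replicate 1 was thus at the MCT level, and its log2 fold change of 0.51 did not pass (adjusted p = 0.17). What sets control replicate 1 apart for P4ha1, P4ha2 and Serpinh1 was not tested.

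Lysyl hydroxylases differ in the lysines they act on. Plod1 acts on lysines of the triple helix. It stood at 22.8, 16.7 and 14.95 FPKM in the controls and at 23.7, 29.0 and 22.3 FPKM in the MCT lungs, so that control replicate 1 lay above MCT replicate 3 and the groups overlapped. Its log2 fold change was 0.47 (SE 0.19, 95% interval 0.03 to 0.90, adjusted p = 0.14). Without control replicate 1 it was 0.69 and passed (adjusted p = 0.0402). Plod3, which also transfers sugars to hydroxylysine, stood at 25.6, 24.5 and 22.3 FPKM in the controls and at 30.1, 36.8 and 32.7 FPKM in the MCT lungs. All 3 MCT values were above all 3 controls, and the log2 fold change was 0.47 (SE 0.13, 95% interval 0.18 to 0.76, adjusted p = 0.0456). This call lay close to the threshold and ended when any 1 of the 6 samples was left out (adjusted p = 0.0549 to 0.16, log2 fold changes of 0.38 to 0.55).

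Plod2 makes the hydroxylysine of collagen telopeptides, from which crosslinks that resist breakdown are formed, and it had the largest change of the 10 transcripts. Its level was 14.2, 10.5 and 12.03 FPKM in the control replicates and 51.4, 17.5 and 41.5 FPKM in the MCT replicates. MCT replicates 1 and 3 were far above the controls, while MCT replicate 2 lay only slightly above the highest control. The log2 fold change was 1.60 (SE 0.34, 95% interval 0.82 to 2.37, adjusted p = 0.0195), which rested on 518 to 796 counts in each control and 1096 to 2766 in each MCT lung. The value ranged from 1.29 without MCT replicate 1 to 1.93 without MCT replicate 2. Leaving out control replicate 2 gave an adjusted p of 0.0809, leaving out control replicate 3 gave 0.0793 and leaving out MCT replicate 3 gave 0.0583, so each of these ended the call while the direction held.

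By the median log2 level of each list, MCT replicate 2 was also the lowest MCT lung for macrophage, mast cell and smooth muscle markers. It was the highest for the endothelial markers. Not every macrophage or smooth muscle marker went this way. Gpnmb and Csf1r were lower in MCT replicate 3 (237 and 50.6 FPKM) than in MCT replicate 2 (254 and 73.7 FPKM). Lmod1 was lower in MCT replicate 1 (5.79 FPKM) than in MCT replicate 2 (7.17 FPKM). Myh11 differed little, at 51.8, 48.6 and 51.1 FPKM in MCT replicates 1 to 3. Relative to each gene's mean over the 6 samples, the median log2 level of 7 tested macrophage markers was 1.37, 0.36 and 0.56 in MCT replicates 1 to 3, that of 6 mast cell markers was 3.23, 1.12 and 2.34, and that of 8 smooth muscle markers was 0.64, -0.12 and 0.59. The median was -0.58, 0.22 and -0.30 for the 8 endothelial markers, and 0.49, 0.07 and 0.43 for the 12 genes of the TGF-beta list described below. Summed FPKM of the smooth muscle markers was 214 to 250 in controls and 279 to 548 in MCT lungs, with 4 of 8 called higher. For the macrophage markers it was 187 to 207 and 446 to 753, with 6 of 7 tested called higher and Marco, not tested, listed at 0 in at least 1 sample, and for the mast cell markers 14.1 to 20.7 and 274 to 907, with 6 of 6 called higher. Fibroblast markers summed to 520 to 556 FPKM in controls and 446 to 575 in MCT lungs, with 1 higher and 2 lower of 8, and the 6 pericyte markers had 0 calls. Mesothelial markers were lower (4 of 5, summing to 51.5 to 63.7 FPKM in controls and 8.19 to 12.1 in MCT lungs), and the 6 mitosis genes were all called higher (22 to 22.7 and 78.5 to 94.2 FPKM). The part of these cells in the change of Plod2 or of the other members was not tested. In whole lung tissue, a change in the number of cells of a type and a change in RNA per cell cannot be told apart.

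Among the lysyl oxidases, Lox was the most abundant. It stood at 64.9, 74.1 and 49.7 FPKM in control replicates 1 to 3 and at 73.7, 71.7 and 72.5 FPKM in the MCT replicates. The MCT lungs were nearly equal, the controls spread 1.56-fold from lowest to highest on the CPM scale, and control replicate 2 lay above every MCT value. Lox had a log2 fold change of 0.21 (SE 0.17, 95% interval -0.17 to 0.60, adjusted p = 0.441), and it lay between 0.05 and 0.36 over the 16 alternatives without being called in any.

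Loxl1, which is best known for crosslinking elastin in vessel walls and other elastic tissue, had the most even change. Its level was 31.3, 28.3 and 34.8 FPKM in controls and 57.3, 58.8 and 57.4 FPKM in MCT lungs, so every MCT lung exceeded the highest control by a wide margin. The log2 fold change was 0.89 (SE 0.11, 95% interval 0.64 to 1.14, adjusted p = 0.00271). Loxl1 was called in all 16 alternatives, with values of 0.83 to 0.95, and it was the only member of which this held.

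Loxl2, which acts on fibrillar and basement membrane collagen, was much less abundant, at 3.29, 2.67 and 2.97 FPKM in controls and 6.69, 4.65 and 5.09 FPKM in MCT lungs. The groups did not overlap, and MCT replicate 1 was the highest. Its log2 fold change was 0.89 (SE 0.20, 95% interval 0.43 to 1.35, adjusted p = 0.0249) on 81 to 212 counts per sample. Its adjusted p was 0.0847 when control replicate 2 was left out, 0.0935 for control replicate 3, 0.083 for MCT replicate 1 and 0.0549 for MCT replicate 3, each past the threshold. The lowest of these fold changes was 0.74, without MCT replicate 1.

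Loxl3 and Loxl4 were the least abundant, with 44 to 143 counts per sample between them. Loxl3 stood at 1.45, 1.53 and 1.40 FPKM in controls and 2, 1.83 and 1.35 FPKM in MCT lungs, with overlapping groups and a log2 fold change of 0.26 (95% interval -0.30 to 0.81, adjusted p = 0.522). Loxl4 stood at 0.97, 1.85 and 2.70 FPKM in controls and 1.39, 1.92 and 2.03 FPKM in MCT lungs. Its controls spanned the whole range of the MCT lungs, and its log2 fold change was -0.03 (95% interval -0.85 to 0.78, adjusted p = 0.965). Both intervals span changes in either direction, so at these counts neither transcript is shown to be unchanged.

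**Figure D2:**
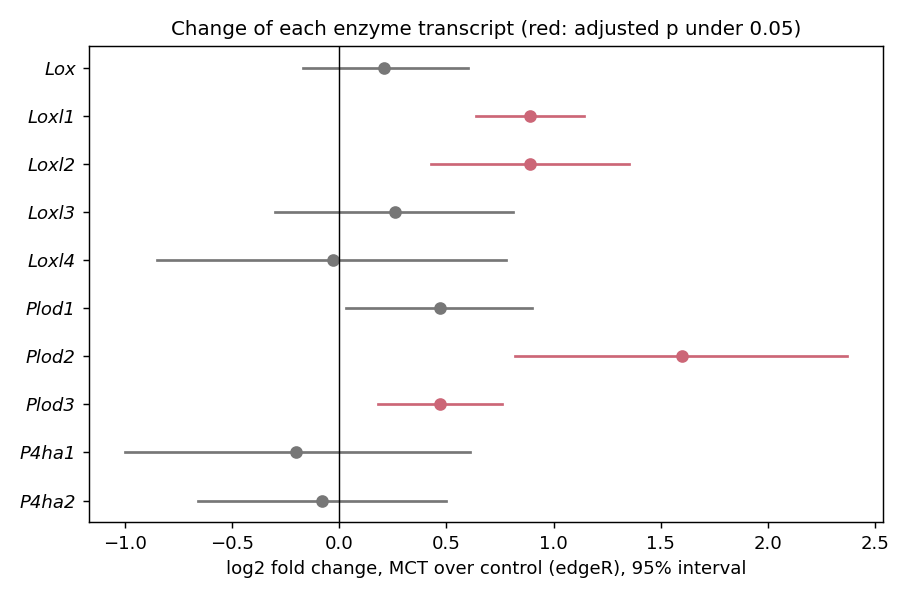
Estimated log2 fold change of each enzyme transcript, MCT over control, from the edgeR fit (points) with its 95% interval (lines); red marks an adjusted p under 0.05. The intervals of Loxl1, Loxl2, Plod2 and Plod3 lie above 0 and pass the adjusted test, that of Plod1 (0.03 to 0.90) lies above 0 without passing it, and those of the other 5 include 0.

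The make-up of each family was expressed as the share of each member in the family's summed FPKM, as a description with no test. Lox took 63.7%, 68.3% and 54.3% of the lysyl oxidase sum in control replicates 1 to 3 and 52.2%, 51.6% and 52.4% in the MCT replicates. Loxl1 took 30.7%, 26.1% and 38.0% in controls and 40.6%, 42.3% and 41.5% in MCT lungs. The shares of neither gene overlapped between groups, and the ratio of Loxl1 to Lox was 0.382 to 0.70 in controls and 0.778 to 0.82 in MCT lungs. Lox and Loxl1 make up most of the sum, so a larger Loxl1 share lowers that of Lox, which was itself not called. The fall of the Lox share is therefore not a separate result. Loxl2, Loxl3 and Loxl4 together were a small part, with mean shares of 3.92%, 1.24% and 1.28% in MCT lungs.

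In the lysyl hydroxylase family Plod3 was the most abundant in all controls, with 40.8%, 47.4% and 45.2%. Plod2 took 22.7%, 20.3% and 24.4% there. In MCT replicates 1 and 3 Plod2 was the most abundant, with 48.9% and 43.0%, whereas in MCT replicate 2 it took 21.0%, within the range of the controls. The alpha chain P4ha1 took 65.3%, 43.3% and 64.3% of its family's sum in controls and 60.0%, 55.1% and 58.3% in MCT lungs, so the groups overlapped.

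**Figure D3:**
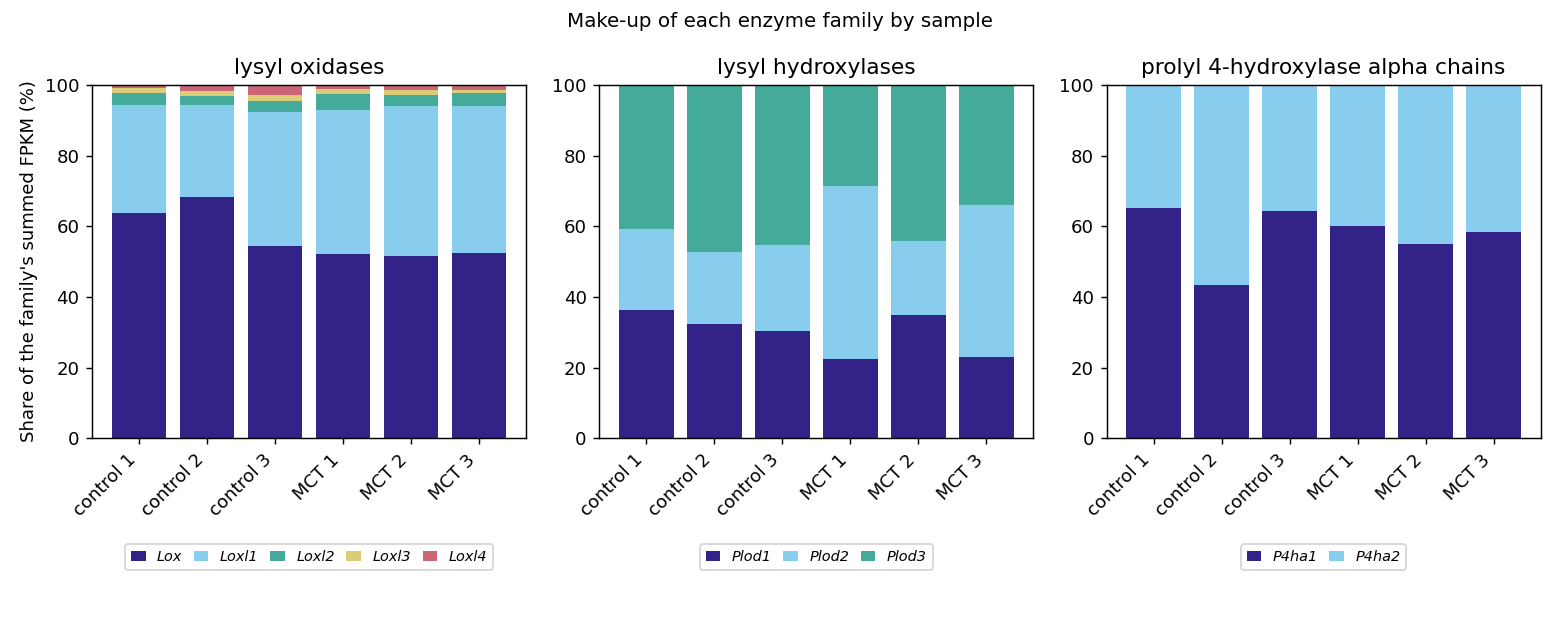
Share of each member in the summed FPKM of its family (vertical axis, percent) in each of the 6 samples (horizontal axis). The Loxl1 part is larger in each MCT lung (40.6% to 42.3%) than in each control (26.1% to 38.0%), and the Plod2 part is enlarged in MCT replicates 1 and 3 but not in MCT replicate 2 (21.0%).

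Summed over each family, the lysyl oxidases were at 91.5 to 108 FPKM in controls and 138 to 141 FPKM in MCT lungs, and the lysyl hydroxylases at 49.2 to 62.6 and 83.3 to 105 FPKM. The alpha chains were at 59.8 ± 27.0 and 53.9 ± 5.29 FPKM (SD, n = 3), a ratio of 0.901, and their sums overlapped between groups. Of the fibrillar collagen genes, whose products these enzymes modify, Col1a1, Col1a2 and Col3a1 summed to 347 ± 12.1 and 701 ± 76.2 FPKM. That was a ratio of 2.02, beside 1.39 for the lysyl oxidases and 1.74 for the lysyl hydroxylases. Most of this sum was Col3a1, at 293 FPKM in controls and 591 FPKM in MCT lungs. Other fibrillar chains were not in the sum, such as Col5a2, which had 56.1 FPKM in controls and 57.1 FPKM in MCT lungs and was not called. As a percentage of that collagen sum, the lysyl oxidases stood at 29.7%, 30.0% and 27.0% in control replicates 1 to 3 and at 17.9%, 21.1% and 21.1% in the MCT replicates, without overlap. The alpha chains stood at 26.5%, 12.4% and 12.9% in controls and at 6.5%, 9.12% and 7.71% in MCT lungs, also without overlap. The lysyl hydroxylases stood at 18.2%, 14.3% and 14.6% and at 13.3%, 12.7% and 14.7%, with overlap. These sums are descriptions, and no test was made over the members. The collagen sum rose 2.02-fold, so any sum that rose less falls as a percentage of it. Lack of overlap in these percentages therefore does not by itself show a change of the enzymes. How many other genes would part in the same way was not counted.

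A list of 19 other tested genes held collagen-modifying enzymes, chaperones, and genes of collagen export and its regulation (such as Sec23a, Sec24d and Creb3l1). Of these, 5 were higher, 0 lower and 14 did not pass, with a median log2 fold change of 0.29. P4hb, the beta chain that pairs with P4ha1 and P4ha2, rose 1.71-fold, from 517 ± 65 to 886 ± 126 CPM (SD, n = 3), while the alpha chains did not pass. Fkbp10, a prolyl isomerase that assists Plod2, rose 1.70-fold, from 34.5 ± 2.69 to 58.6 ± 4.52 CPM, and was called in all 16 alternatives. Ppib, cyclophilin B, rose 1.52-fold, and Colgalt1, which adds galactose to hydroxylysine, 1.36-fold. P4hb lost its call (adjusted p = 0.0562 to 0.0826) without control replicate 2, control replicate 3 or MCT replicate 3. That of Ppib ended without any 1 sample other than control replicate 1 (adjusted p = 0.055 to 0.117), and that of Colgalt1 without any 1 of the 6 (adjusted p = 0.0558 to 0.107). The fifth gene, Creb3l1, a transcription factor of collagen secretion, had a log2 fold change of 0.70, and its call ended without any 1 sample other than MCT replicate 2 (adjusted p = 0.062 to 0.132). P4ha3, the remaining alpha chain, did not pass, with 9.22 ± 2.12 CPM in controls and 11.3 ± 0.35 CPM in MCT lungs (log2 fold change 0.29, adjusted p = 0.382). The prolyl 3-hydroxylase family genes P3h1, P3h2, P3h3 and P3h4 did not pass either (adjusted p = 0.151 to 0.918).

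A list of 13 tested genes held procollagen proteases and their enhancer, other crosslinking enzymes, and matrix proteins that bind collagen fibrils. Of these, 3 were higher (the protease Adamts2, the enhancer Pcolce and the proteoglycan Bgn), 3 lower (Bmp1, Tll1 and Tgm1) and 7 not called, with a median log2 fold change of 0.30. Adamts2 lost its call when any 1 sample other than MCT replicate 3 was left out (adjusted p = 0.0665 to 0.134), and Bgn when any 1 sample other than control replicate 1 or MCT replicate 2 was (adjusted p = 0.071 to 0.106). Bmp1, the protease that removes the C-propeptide of procollagen and also releases the Lox propeptide, stood at 359, 422 and 308 CPM in controls and 150, 196 and 205 CPM in MCT lungs. Bmp1 thus fell 1.98-fold with no overlap between groups (log2 fold change -0.98, SE 0.17, adjusted p = 0.00949) and was called in all 16 alternatives. Tll1, a protease of the same family, fell 2.91-fold from a low level, 4.86 ± 1.22 CPM, but leaving out control replicate 3 ended its call (adjusted p = 0.0761). Pcolce, the protein that enhances cleavage by Bmp1, rose 2.21-fold, from 42.7 ± 9.37 to 94.5 ± 7.22 CPM. Tgm1, a transglutaminase of epithelia, fell 3-fold, and Tgm2, the widely expressed transglutaminase, did not pass (log2 fold change 0.30, adjusted p = 0.345). Sparc, a collagen-binding protein and the most abundant of the list, did not pass (log2 fold change 0.51, adjusted p = 0.113). It was called with DESeq2 (adjusted p = 0.0173).

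Among 16 tested substrates and matrix partners, 7 were higher, 0 lower and 9 not called, with a median log2 fold change of 0.72. Col3a1, the most abundant by FPKM, rose 2.03-fold and Col1a1 2.16-fold, and Fn1, the gene of fibronectin, to which Lox binds, rose 5.25-fold. Efemp2, or fibulin-4, which tethers Lox to elastin, rose from 23.7 ± 0.8 to 51.6 ± 7.74 CPM (log2 fold change 1.12, adjusted p = 0.00284). Eln, the elastin gene, had 1003, 760 and 509 CPM in controls and 832, 1503 and 1205 CPM in MCT lungs, with overlap, and did not pass (log2 fold change 0.64, adjusted p = 0.172). Fbln5, a fibulin that binds Loxl1, did not pass (log2 fold change 0.63, adjusted p = 0.0876), nor did Col1a2 (0.83, adjusted p = 0.0537), Col5a1 (0.08, adjusted p = 0.748) or Col5a2 (0.04, adjusted p = 0.87).

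**Figure D4:**
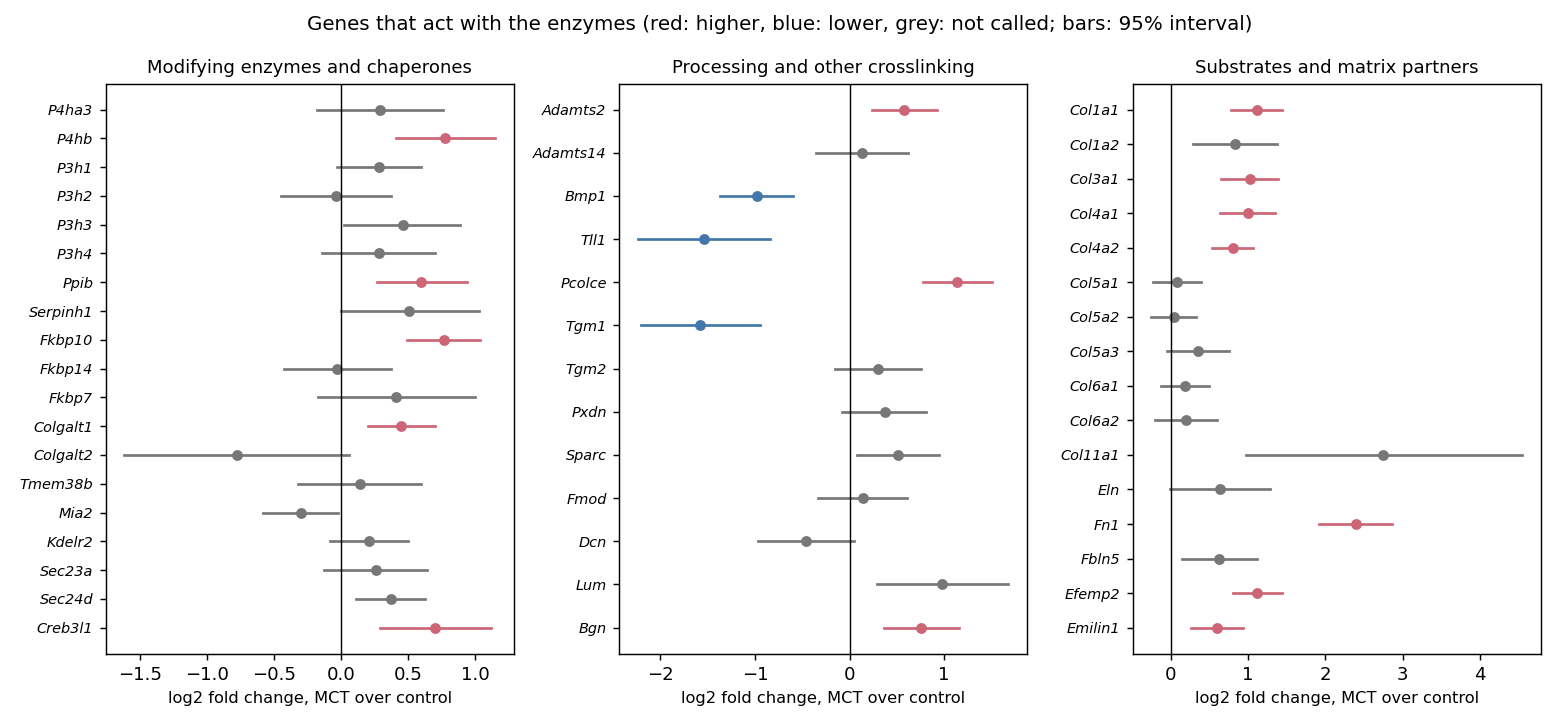
Estimated log2 fold change, MCT over control, with 95% intervals for tested genes of collagen modification and export (left), procollagen processing, other crosslinking and fibril binding (middle) and substrates with their matrix partners (right). Red and blue mark genes called higher and lower; P4hb (0.78), Pcolce (1.14) and Fn1 (2.39) lie to the right of 0 and Bmp1 (-0.98), Tll1 (-1.54) and Tgm1 (-1.58) to the left.

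Hypoxia-responsive genes, a list that shares its known regulators with Plod2, P4ha1 and P4ha2, were called in both directions. The list also holds Hif1a and Epas1, which encode such regulators. Of its 21 genes, 5 were higher (Pgk1, Aldoa, Eno1, Adm and Hk2) and 3 lower (Mxi1, Kdm3a and Epas1). The other 13 were not called, and the median log2 fold change was 0.26. The glycolytic gene Eno1 rose 1.68-fold, from 178 ± 4.86 to 299 ± 42.4 CPM. Epas1, which encodes the factor HIF-2alpha of endothelium and was the most abundant of the list, fell 2.12-fold, and Mxi1, a Myc antagonist, 1.43-fold. The call of Epas1 ended without control replicate 2 (adjusted p = 0.0531) and that of Mxi1 (adjusted p = 0.0647 to 0.0822) when any 1 sample other than control replicate 1 or MCT replicate 2 was left out. The list's counts moved with the samples held, from 1 higher without control replicate 2, control replicate 3, MCT replicate 1 or MCT replicate 3 to 8 higher without MCT replicate 2. Beside the fall of Epas1, 0 of 8 endothelial markers were higher, 2 were lower (Cdh5 and Tek) and 6 were not called, with a median log2 fold change of -0.41. Tek was called in all 16 alternatives, whereas Cdh5 lost its call when any 1 sample other than MCT replicate 2 was left out (adjusted p = 0.0826 to 0.131). The 8 markers summed to 1133 to 1371 FPKM in controls and 741 to 1288 FPKM in MCT lungs, and their part in the change of Epas1 was not tested. Hif1a did not pass (log2 fold change 0.26, adjusted p = 0.284).

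A list of genes that respond to TGF-beta, a known inducer of lysyl oxidases, had 6 of 12 higher, 0 lower and 6 not called. The median log2 fold change was 0.79. The list also holds the ligand genes Tgfb1, Tgfb2 and Tgfb3, of which only Tgfb3 was called, as higher. Those not called were Smad7 (log2 fold change -0.18), Skil (-0.2), Tgfb1 (0.5), Tgfb2 (0.41), Cthrc1 (0.86) and Comp (1.02). Ltbp2 rose 2.13-fold, but leaving out control replicate 2 ended its call (adjusted p = 0.0511). Postn, or periostin, which assists the activation of Lox by Bmp1, rose 1.64-fold, which did not pass when control replicate 2 was left out (adjusted p = 0.0659). Only 1 of these 12 was called without control replicate 2.

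The enzymes need copper (lysyl oxidases) or iron, ascorbate and an oxo acid (hydroxylases). Of 11 genes that import, export, deliver or make these cofactors, 2 were higher, 0 lower and 9 not called. The list mixes import with export, so these counts are not a measure of cofactor supply. Slc40a1, the iron exporter ferroportin, which macrophages express strongly, rose 2.69-fold. Slc31a2, a copper transporter, rose 1.57-fold, a call that ended without any 1 sample other than MCT replicate 2 (adjusted p = 0.0633 to 0.0996). Atox1, the copper chaperone that delivers to Atp7a, did not pass (log2 fold change 0.48, adjusted p = 0.127), nor did Atp7a, the pump that loads lysyl oxidases with copper (0.14, adjusted p = 0.582), or Idh2 (-0.06, adjusted p = 0.775).

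For each called member, the closest profile was sought among tested genes that had a symbol and a mean of at least 5 CPM and were not members. Closeness was the root mean square difference in log2 CPM over the 6 samples, each gene centred on its control mean. The closest genes were PVR for Loxl1 (0.0604), Oma1 for Loxl2 (0.0326), Rgs16 for Plod2 (0.155) and Pkn3 for Plod3 (0.046), given as a description among many genes. Rgs16 stood at 3.66, 3.43 and 2.91 CPM in controls and 15.7, 6.11 and 12.1 CPM in MCT lungs, with the same low MCT replicate 2 as Plod2. Among the members themselves, Loxl1 and Loxl2 were closest to each other (0.179), as were Plod1 and Plod3 (0.149), whereas the member closest to Plod2 was Loxl2 at 0.585. The genes closest to the members that were not called are named outside the rule. They were Nagpa for Lox (0.063), Taf1c for Loxl3 (0.0286) and Tmem37 for Loxl4 (0.161). The others were P3h3 for Plod1 (0.0808), Fastkd1 for P4ha1 (0.164) and Zhx3 for P4ha2 (0.11).

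**Figure D5:**
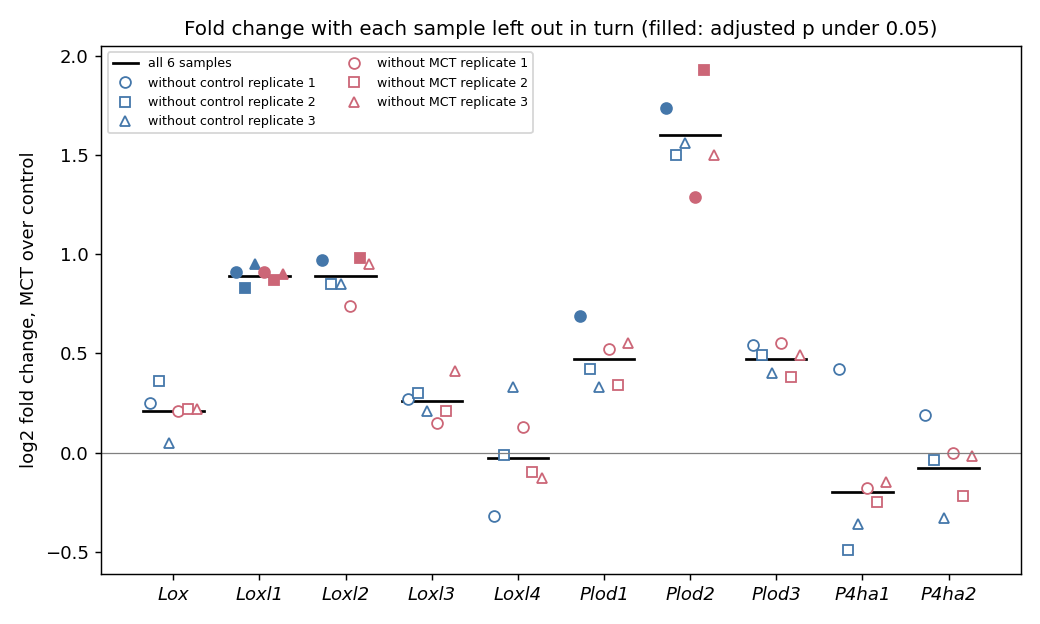
Estimated log2 fold change of each member, MCT over control, with all 6 samples (black lines) and with each sample left out in turn (symbols; filled where the adjusted p was under 0.05). Loxl1 stays between 0.83 and 0.95 and is filled each time, Plod2 spans 1.29 to 1.93, and P4ha1 moves from -0.49 to 0.42 with the controls that are held.

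Summed counts per sample ranged from 13525912 to 17916134, and the samples parted by group on the first principal component, which held 58.9% of the variance. Markers that define lung were present, with surfactant and other alveolar and club cell transcripts summing to between 22917 and 45472 FPKM, and 0 of the 8 were listed at 0. Cardiac muscle markers summed to 10.7 to 31.8 FPKM, with Myh6 and Nppa listed at 0 in at least 1 sample. Actc1 was the largest part of this sum and was highest in MCT replicate 1 (27.4 FPKM), and Tnnt2 was highest in MCT replicate 3 (3.72 FPKM). Myh6, Myl7 and Myl4 were highest in control replicate 3 (1.18, 4.02 and 3.65 FPKM), the cause of which was not tested. No pair of replicates was alike within counting error (chi-square over its degrees of freedom 23.2 to 52.6).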

How the data were processed

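PolyA RNA of 6 rat lung samples was measured. The build Rnor_6.0 and the tools TopHat2 2.0.3.12 and Bowtie2 are listed in the submitters' processing notes, and which tool counted reads is not given in the sources here. The authors deposited an estimated count and an FPKM value per gene, per the file headers. The estimated counts deposited were rounded to whole numbers. FPKM values were made by the authors and were used for levels between genes.

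Groups came from the sample titles. Counts of all 6 samples were fitted with edgeR 4.0.16 (R 4.3.3) by the quasi-likelihood test with TMM factors, without covariates. The filter was filterByExpr (minimum count 10, minimum total 15), and p-values were adjusted by Benjamini-Hochberg over 15250 genes. CPM is TMM-normalized. The SE is the log2 fold change divided by the root of F. The members and lists were chosen with earlier results of these data known. All members were named, and of each list the 3 genes with the smallest p, the gene with the highest mean FPKM and those that act with a member; Creb3l1, Tll1, Colgalt1, Adamts2, Bgn, Cdh5, Tek and a few others were named after their values were seen. A gene that the rule names in the TGF-beta list is not reported here. Fits were tested on simulated data. Alternatives were DESeq2 1.42.0, limma-voom (limma 3.58.1), other normalization factors, other filters, limma on log2(FPKM + 1) and log2(FPKM + 0.1), a replicate block and leaving out each sample. Counts carry no molecular identifiers, so depth limits cover counting error only. Promoter windows are RefSeq's in GRCr8, another build than the files', and P4ha1's lies inside the gene as RefSeq spans it. A comparison of the proteins was not made here.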

Additional observations from a re-analysis of the deposited data

How the results depend on the processing

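Of the 10 members, Loxl1 kept its call in all 16 alternatives. The set of 4 called members was the same with DESeq2, limma-voom, both other normalization factors, the stricter filter and limma on log2(FPKM + 1) or log2(FPKM + 0.1). With limma on log2(FPKM + 1) and no filter, where more genes were tested, Loxl1 alone stayed called, so 1 member was called higher. The values were then 0.69 for Loxl2 (adjusted p = 0.0631), 1.39 for Plod2 (adjusted p = 0.0742) and 0.44 for Plod3 (adjusted p = 0.0579). Plod3 stood at 0.47 (adjusted p = 0.0529) with no filter on low counts.

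With a sample left out, 1 to 4 members were called higher and 0 lower. The log2 fold changes then ranged from 0.74 to 0.98 for Loxl2, 1.29 to 1.93 for Plod2, 0.38 to 0.55 for Plod3, 0.33 to 0.69 for Plod1, -0.32 to 0.33 for Loxl4, -0.49 to 0.42 for P4ha1 and -0.33 to 0.19 for P4ha2. Counts over all genes ranged from 481 to 1394 higher and from 212 to 978 lower. DESeq2 called 1182 genes lower, and limma on log2(FPKM + 1) with no filter 463. Loxl4 was not called in any alternative, but its sign was not stable. It turned positive with limma-voom (0.03), on log2(FPKM + 1) with and without the filter (0.01 each) and on log2(FPKM + 0.1) (0.04). It was also positive without control replicate 3 (0.33) or MCT replicate 1 (0.13). P4ha1 turned to 0.42 and P4ha2 to 0.19 without control replicate 1, and P4ha2 to 0.00 without MCT replicate 1. Apart from what each alternative's own construction shows, the cause was not tested.

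The shared replicate numbers are not said to pair the samples. Deviations of same-numbered samples from their group means correlated at -0.077 to -0.030 over 15250 genes, and no control correlated best with the MCT sample of its own number. With the replicate number as a block, 3 members were called, Plod3 stood at 0.47 (adjusted p = 0.0798), Loxl4 at 0.05 (adjusted p = 0.94), and 917 genes were higher and 546 lower.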
